A study of Mus musculus with 10 samples.

Results

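The 39 genes described here encode proteins of the nucleolus and of ribosome assembly, measured by RNA sequencing in pieces of the mouse pancreas tail. They were taken by symbol from a given list, and all 39 were among the 24421 genes of the count table and among the 13688 genes with enough counts to be tested. The mice were females aged 12 weeks, with 1 library per mouse. All of them carried Ptf1aCreER, a Cre recombinase driven by the acinar gene Ptf1a, and the nuclear reporter nTnG. Between groups, the alleles of Insr, which encodes the insulin receptor, were varied: 3 libraries were Insr WT (Insrw/w), 3 were Insr Het (Insrw/f, 1 floxed allele) and 4 were Insr KO (Insrf/f, 2 floxed alleles). A floxed allele holds a segment that Cre can remove, here in cells where Ptf1aCreER is made and active. When the Cre was made active is not reported here. By the title of the series, the question is what the insulin receptor of acinar cells does for enzyme production and inflammation. Libraries are named by genotype label and mouse number, as in KO-2126.

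Ribosomes are built in the nucleolus. RNA polymerase I copies the ribosomal DNA into a long precursor RNA, small nucleolar ribonucleoproteins (snoRNPs) modify it, and large protein assemblies fold, cut and pack it into the small (40S) and the large (60S) subunit. Acinar cells of the pancreas make large amounts of secreted enzyme and are rich in ribosomes, and the genes of this pathway are known to be driven by growth signals, among them insulin signalling and the transcription factor Myc.

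Gene counts ranged from 11718559 to 19024351 per library, and every member had at least 22 counts in every library. Levels are in CPM, read counts relative to the total, of the library size scaled by TMM, a factor computed so that most genes keep their level. The libraries differed widely in composition: 31 digestive enzyme genes took 16.4% of all counted reads of WT-2404, 60.02% of those of WT-1860 and 73.3% of those of WT-2067, against 73.0% to 77.9% in Het and 63.7% to 79.3% in KO libraries. Amy2a5 had 0 counts in 7 of the 10 libraries, and every other enzyme gene was counted in all of them. The TMM factor was 3.53 for WT-2404 and 0.596 to 1.56 for the others. WT-2404 stood apart in both measures. The level of Insr itself was 29.8 ± 9.88 CPM (SD, n = 3) for WT and 31.5 ± 5.95 CPM (SD, n = 4) for KO, and edgeR fitted 0.09 on the log2 scale (SE 0.26, adjusted p by edgeR = 0.864). In Het it was 38.5 ± 8.92 CPM (SD, n = 3), fitted at 0.37 against WT (SE 0.27, adjusted p by edgeR = 0.437). Counts per gene in a whole piece do not show whether an exon was removed in acinar cells, so this does not check the labels.

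In KO against WT, 36 of the 39 members had a fitted log2 fold change above 0, where 51.8% of all tested genes did. Their median log2 fold change was fitted at 0.30, beside 0.03 over all tested genes, and single members ran from -0.25 to 1.06. No member passed the test, edgeR's quasi-likelihood test with p-values adjusted over all tested genes: 0 of 39 members and 0 of 13688 genes (0%) were under an adjusted p of 0.05, and the smallest adjusted p of a member was 0.116. At an unadjusted p under 0.05, 3 members were higher and 0 lower, where 9.6% of all genes were higher and 13.9% lower. The CPM ranges of WT and KO did not overlap for 7 members, Pdcd2, Pdcd2l, Polr1b, Polr1c, Ubtf, Wdr43 and Nop16, all higher in KO (7 of 39), while 6.74% of all genes had such ranges with KO higher and 9.17% with KO lower. DESeq2, the other test run, called 1 member, Pdcd2, where it called 7.37% of all genes. Without WT-2067, edgeR called 3 members, Pdcd2, Pdcd2l and Rrs1, and 13.6% of all genes. The members stood above the background in the share fitted above 0 and in separate ranges with KO higher, and at or below it in the counts past an adjusted or unadjusted p.

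In Het against WT, 31 of 39 members were fitted above 0, against 50.3% of all genes, with a median of 0.18 beside 0.00 over all genes. edgeR called 0 of 39 members and 0% of all genes at an adjusted p under 0.05. At an unadjusted p under 0.05, 4 members were higher and 0 lower (8.26% and 11.6% of all genes), and DESeq2 called 1 member, Pdcd2 (2.92% of all genes). Ranges were separate with Het higher for 7 members, Pdcd2, Pdcd2l, Nop10, Polr1c, Wdr12, Mrto4 and Npm1, against 11.3% of all genes. This comparison uses the same 3 WT libraries as the one before it, so neither set of values is independent of the other.

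**Figure D1:**
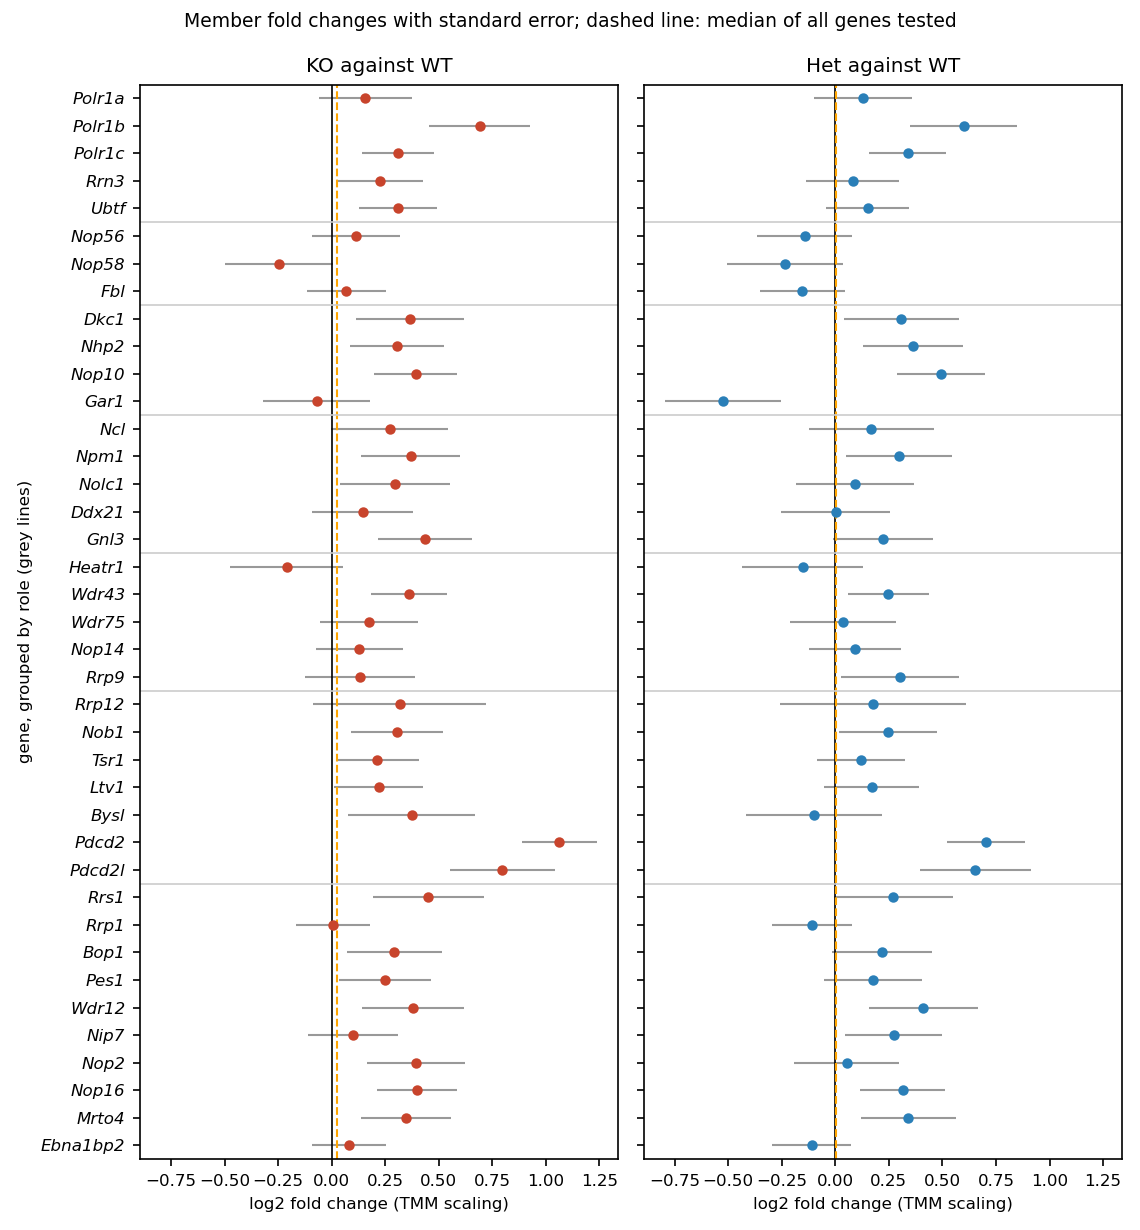
Log2 fold change of each member in KO against WT (left) and Het against WT (right). Points are edgeR estimates and bars are standard errors derived from its test statistic. The solid line is 0, the dashed line is the median of all tested genes, and grey lines part the roles. In KO against WT 36 of 39 points lie above 0, with Pdcd2 farthest at 1.06.

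Promoter windows from RefSeq (GRCm38.p6), 300 bases from 250 before to 50 after an annotated start, were on hand for 33 of the 39 members. Missing were Bop1, Fbl, Npm1, Pdcd2, Rrp12 and Rrs1. Motifs were searched on both strands. The E-box CACGTG, the sequence bound by Myc and related factors, was in a window of 7 members (21.2%): Ltv1, Nop2, Pdcd2l, Pes1, Rrn3, Tsr1 and Wdr43. It was in a window of 8.09% of all 27025 genes with one. These genes, tested here or not, are the background for each motif. CCGGAAG, a core of the sites of ETS factors, was in 11 members (33.3%) against 9.93% of all genes. CCAAT was in 11 members (33.3%) against 41.1%. Of a pair of longer palindromes, one of them the strict motif of the factor NRF1, 0 of the 33 members held a match, where 0.525% and 1.07% of all genes did. Member windows were richer in GC, with a median of 59.5% against 52.7% over all windows, and held a median of 22 CG dinucleotides against 7. CACGTG and CCGGAAG each hold a CG, and their shares were not compared at equal CG content. A motif match describes the letters of a window and shows no binding. Windows of 3 members whose KO and WT ranges were separate are printed below, from 250 bases before the start to 30 from it, with motif matches in capitals: Pdcd2l (minus strand, chr7:34196641-34196920) holds CACGTG and CCAAT, Wdr43 (plus strand, chr17:71615965-71616244) holds CACGTG, and Polr1c (minus strand, chr17:46248016-46248295) holds CCGGAAG.
Pdcd2l: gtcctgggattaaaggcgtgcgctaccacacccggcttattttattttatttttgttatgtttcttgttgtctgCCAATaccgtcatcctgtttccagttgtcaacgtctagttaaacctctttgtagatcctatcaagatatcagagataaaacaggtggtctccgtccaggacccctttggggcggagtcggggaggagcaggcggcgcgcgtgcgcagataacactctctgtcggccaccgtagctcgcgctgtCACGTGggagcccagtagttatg
Wdr43: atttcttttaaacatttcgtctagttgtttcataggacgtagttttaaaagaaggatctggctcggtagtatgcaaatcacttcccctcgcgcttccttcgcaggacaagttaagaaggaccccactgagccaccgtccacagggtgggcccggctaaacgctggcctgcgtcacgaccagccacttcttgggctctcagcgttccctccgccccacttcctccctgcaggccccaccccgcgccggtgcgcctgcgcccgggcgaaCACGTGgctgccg
Polr1c: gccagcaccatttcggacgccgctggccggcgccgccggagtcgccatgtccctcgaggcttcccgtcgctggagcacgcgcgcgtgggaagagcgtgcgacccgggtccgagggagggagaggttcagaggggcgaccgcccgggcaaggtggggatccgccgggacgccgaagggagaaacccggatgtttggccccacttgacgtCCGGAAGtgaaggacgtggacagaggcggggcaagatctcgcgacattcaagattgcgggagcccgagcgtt
In Pdcd2l and Wdr43 the CACGTG lies just after the start, at 7 and 17 bases beyond its first base. In Polr1c the CCGGAAG lies 42 bases before the start. Polr1b, Ubtf and Nop16, with separate ranges too, have windows with neither CACGTG nor CCGGAAG.

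The genes of RNA polymerase I transcription were higher in KO than in WT in 5 of 5 cases, with a median log2 fold change of 0.31, and 0 passed the test. Polr1b, a catalytic subunit of the polymerase, was the farthest. Polr1b was at 5.85, 5.52 and 6.92 CPM in the WT libraries, at 11.4, 9.60 and 6.75 CPM in the Het libraries and at 8.53, 8.69, 9.03 and 13.1 CPM in the KO libraries. All 4 KO libraries lay above all 3 WT libraries, and KO-2126 lay far above the other KO libraries, while the Het libraries spread from the WT range up to 11.4 CPM. The means were 6.10 ± 0.733 CPM (SD, n = 3) in WT and 9.85 ± 2.20 CPM (SD, n = 4) in KO, a log2 fold change of 0.69 (SE 0.23, adjusted p by edgeR = 0.129). Permuting the mice exactly gave a two-sided p = 0.0286, the smallest that 3 against 4 mice allow. Separate ranges already bring such a p to or near its smallest value, here and for the members below. It is not adjusted and adds nothing to the ranges, which 6.74% of all genes had separate with KO higher. Against WT, Het had 0.60 (SE 0.25, adjusted p by edgeR = 0.219), with overlapping ranges.

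Polr1c, a subunit shared with RNA polymerase III, varied little within WT. Polr1c measured 11.2, 11.1 and 10.4 CPM in the WT mice, 15.5, 13.7 and 12.1 CPM in the Het mice and 13.2, 13.6, 11.7 and 15.7 CPM in the KO mice. Every Het and KO library lay above every WT library, and Het and KO overlapped. Its difference on the log2 scale was 0.31 (SE 0.17, adjusted p by edgeR = 0.273) in KO and 0.34 (SE 0.18, adjusted p by edgeR = 0.293) in Het. Ubtf, the factor that binds the ribosomal DNA and holds it open for the polymerase, is the most abundant of these transcripts. For Ubtf, the WT mice had 38.9, 41.7 and 42.1 CPM, the Het mice 45.7, 51.7 and 38.9 CPM and the KO mice 43.8, 48.7, 55.9 and 54.3 CPM. The KO values were all above the WT values, by the smallest step for KO-2079, and the Het values overlapped both groups. The KO against WT log2 fold change came to 0.31 (SE 0.18, adjusted p by edgeR = 0.306). Polr1a, the largest subunit, and Rrn3, which brings the polymerase to the promoter, were fitted between 0.16 and 0.22 with overlapping ranges.

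The genes of the box C/D snoRNPs, particles that methylate ribosomal RNA, were fitted between -0.25 and 0.11 in KO against WT, with overlapping ranges. Nop58 was at 13.9, 11.5 and 13.05 CPM in the WT libraries, at 9.82, 12.6 and 10.3 CPM in the Het libraries and at 10.6, 6.45, 9.81 and 16.3 CPM in the KO libraries. The KO group spans from the lowest value of all 10 mice, in KO-2070, to the highest, in KO-2126, and holds the whole WT and Het ranges. Nop58, a core protein of these particles, had a log2 fold change of -0.25 (SE 0.25, adjusted p by edgeR = 0.566), which was -0.50 without KO-2126 and -0.079 without KO-2070. Nop56 measured 9.97, 13.4 and 13.96 CPM in the WT mice, 12.3, 9.97 and 11.5 CPM in the Het mice and 12.1, 10.01, 16.2 and 15.2 CPM in the KO mice. The groups overlapped throughout, and the KO against WT log2 fold change of Nop56, the partner of Nop58, was 0.11 (SE 0.21, adjusted p by edgeR = 0.76); its sign turned under several alternatives given in the closing section. Fbl, the methyltransferase of the particle, had ranges that overlapped in the same way. In Het all 3 of these genes were fitted below 0, with a median of -0.15, and 0 passed the test.

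The box H/ACA snoRNP proteins belong to particles that make pseudouridine in ribosomal RNA, and they also bind telomerase RNA. Of their genes, 3 of 4 were fitted above 0 in KO and in Het. Nop10 ranks next to Npm1 among the members in CPM per kilobase of exon. For Nop10, the WT mice had 10.9, 11.4 and 16.6 CPM, the Het mice 19.4, 17.98 and 17.2 CPM and the KO mice 15.02, 18.6, 14.7 and 19.8 CPM. WT-2067 was inside the KO range and the other WT libraries were below it, so that Het but not KO was separate from WT. Its log2 fold change was fitted at 0.39 (SE 0.19, adjusted p by edgeR = 0.24) in KO and 0.49 (SE 0.21, adjusted p by edgeR = 0.22) in Het, and the KO value was 0.61 without WT-2067. For Dkc1, the pseudouridine synthase itself, the values overlapped. Dkc1 was at 7.25, 5.19 and 7.23 CPM in the WT libraries, at 9.47, 9.13 and 5.89 CPM in the Het libraries and at 8.71, 7.64, 6.31 and 11.3 CPM in the KO libraries. KO-2126 was the highest and WT-1860 the lowest, and the log2 fold change in KO was 0.36 (SE 0.25, adjusted p by edgeR = 0.386). Gar1 was fitted lower in Het. Gar1 measured 6.36, 7.11 and 4.59 CPM in the WT mice, 3.77, 5.31 and 3.56 CPM in the Het mice and 7.48, 5.27, 4.93 and 5.25 CPM in the KO mice. KO-2079 was the highest and all groups overlapped. Its difference on the log2 scale was -0.07 (SE 0.25, adjusted p by edgeR = 0.886) in KO and -0.52 (SE 0.27, adjusted p by edgeR = 0.287) in Het, the lowest of all members there. Nhp2, the remaining core protein, was fitted above 0 in KO with overlapping ranges.

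Among the abundant nucleolar phosphoproteins and their partners, 5 of 5 genes were fitted above 0 in KO, with a median of 0.30 and 0 past the test. Gnl3 (nucleostemin), a GTPase of the nucleolus, differed most. For Gnl3, the WT mice had 8.63, 13.9 and 11.3 CPM, the Het mice 14.6, 12.6 and 12.1 CPM and the KO mice 12.2, 13.8, 14.3 and 20.4 CPM. KO-2126 was well above all other mice, WT-2404 was the lowest, and WT-1860 lay inside the KO range. The log2 fold change came to 0.44 (SE 0.22, adjusted p by edgeR = 0.245). Npm1 (nucleophosmin), a histone and ribosome chaperone, had the most CPM per kilobase of exon of all members. Npm1 was at 109, 74.1 and 102 CPM in the WT libraries, at 125, 113 and 113 CPM in the Het libraries and at 123, 115, 99.1 and 154 CPM in the KO libraries. The Het libraries were all above the WT libraries, and KO overlapped WT through KO-2124. Npm1 had a log2 fold change of 0.37 (SE 0.23, adjusted p by edgeR = 0.343) in KO and 0.30 (SE 0.25, adjusted p by edgeR = 0.491) in Het. Without WT-1860, the lowest library, these were 0.22 and 0.15, and without KO-2126 the KO value was 0.24. Ncl (nucleolin), the helicase Ddx21 and the snoRNP chaperone Nolc1 were fitted between 0.15 and 0.30 in KO, with overlapping ranges.

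In the small subunit processome, the assembly that forms on the growing precursor RNA, 4 of 5 genes were fitted above 0 in KO. Wdr43 measured 11.9, 13.7 and 13.4 CPM in the WT mice, 17.98, 15.9 and 12.3 CPM in the Het mice and 15.4, 18.2, 14.8 and 18.4 CPM in the KO mice. Wdr43, a protein of the part of the processome that binds first, was higher in all KO than in all WT mice, while Het spanned both. Its log2 fold change was fitted at 0.36 (SE 0.18, adjusted p by edgeR = 0.234). For Heatr1, the WT mice had 10.004, 10.7 and 6.31 CPM, the Het mice 7.02, 10.6 and 6.81 CPM and the KO mice 7.66, 5.14, 8.66 and 9.59 CPM. The groups overlapped fully for Heatr1, a large scaffold of the same part, with the lowest value in KO-2070, and its difference on the log2 scale was -0.21 (SE 0.26, adjusted p by edgeR = 0.649). Leaving out 1 mouse moved it from -0.40 (without WT-2067) to -0.067 (without KO-2070), and it was -0.12 without WT-2404, -0.075 without WT-1860 and -0.32 without KO-2126. Wdr75, Nop14 and Rrp9, a protein of the U3 snoRNP, were fitted between 0.13 and 0.17, all with overlapping ranges.

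The 40S assembly genes held the members farthest from WT. Pdcd2, which binds the small subunit protein uS5 as a chaperone, was fitted 2.09-fold higher in KO and 1.63-fold higher in Het. Pdcd2 was at 4.33, 5.41 and 5.27 CPM in the WT libraries, at 7.98, 8.39 and 7.98 CPM in the Het libraries and at 10.3, 10.8, 10.3 and 10.2 CPM in the KO libraries. The 3 groups were separate and in the order WT, Het, KO. The spread within Het and within KO was the smallest of the 39 members, with coefficients of variation of 2.90% and 2.54%. Pdcd2 had 82 to 259 counts per library, and counting error alone gives a wider spread than this. The closeness of these values is therefore no measure of how exactly the level is known. The means were 5.001 ± 0.590 CPM (SD, n = 3) in WT, 8.11 ± 0.235 CPM (SD, n = 3) in Het and 10.4 ± 0.265 CPM (SD, n = 4) in KO. The log2 fold change came to 1.06 (SE 0.17, adjusted p by edgeR = 0.116) in KO and 0.70 (SE 0.18, adjusted p by edgeR = 0.183) in Het. Between KO and Het it was 0.36 (SE 0.17, unadjusted p by edgeR = 0.0581) and did not pass the test. Exact permutation tests (two-sided) gave p = 0.0286 for KO against WT and 0.0286 for KO against Het, the smallest that 3 against 4 mice allow, and 0.1 for Het against WT, the smallest that 3 against 3 allow. Of all tested genes, 6 (0.0438%) had WT, Het and KO ranges separate in rising order and 13 (0.095%) in falling order, and Pdcd2 was the 1 member among them. DESeq2 gave an adjusted p of 0.00014 for KO against WT, and over all alternatives the adjusted p of Pdcd2 ran from 0.00014 to 0.923.

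The counts of Pdcd2 carry a limit of annotation. Pdcd2 lies on the minus strand at chr17:15519208-15527301 (GRCm38, GENCODE M21), and an exon of a Tbp transcript on the opposite strand covers 100% of its exon length there. Whether counting used strand, and whether its annotation held that exon, is not stated. Ambiguous reads were counted apart from the genes, and Pdcd2 still had 82 to 259 counts per library. Whether reads of that Tbp transcript are among the counts of Pdcd2 was not tested. Tbp itself was at 3.77 ± 0.197 CPM in WT (SD, n = 3), 4.17 ± 1.27 CPM in Het (SD, n = 3) and 4.50 ± 1.11 CPM in KO (SD, n = 4), with overlapping ranges and a KO against WT log2 fold change of 0.26 (SE 0.28, adjusted p by edgeR = 0.59).

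Pdcd2l, the relative of Pdcd2 that binds the same ribosomal protein, was fitted 1.74-fold higher in KO. For Pdcd2l, the WT mice had 3.32, 3.44 and 4.47 CPM, the Het mice 6.14, 5.96 and 5.52 CPM and the KO mice 4.51, 6.98, 6.13 and 8.48 CPM. All Het and KO libraries lay above all WT libraries, with KO-2079 at 4.51 CPM next to WT-2067 at 4.47 CPM, and KO-2126 was the highest. The log2 fold change was fitted at 0.80 (SE 0.25, adjusted p by edgeR = 0.121) in KO and 0.65 (SE 0.26, adjusted p by edgeR = 0.208) in Het. The exact permutation p over the mice was 0.0571 (two-sided) for KO against WT. The other 5 genes of this role were Rrp12, Tsr1, Ltv1, Bysl and Nob1, the nuclease that makes the end of the small subunit RNA. They were fitted between 0.21 (Tsr1) and 0.37 (Bysl) in KO, and their ranges overlapped those of WT. Rrp12 had the widest spread of all members within Het relative to its mean, from 2.15 CPM in Het-2042 to 6.71 CPM in Het-1770.

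**Figure D2:**
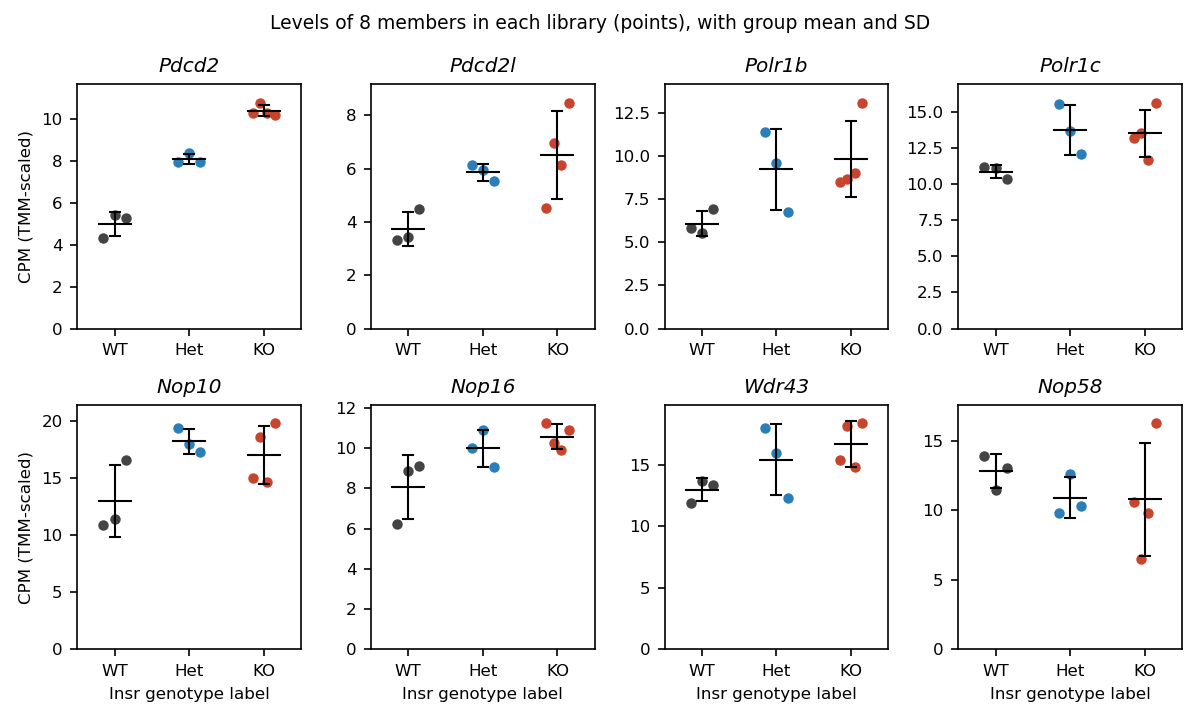
TMM-scaled CPM of 8 members in each mouse by Insr genotype label, with points for mice and bars for the group mean and SD; each axis starts at 0. Pdcd2 has 3 separate groups, at 4.33 to 5.41, 7.98 to 8.39 and 10.2 to 10.8 CPM, while Nop58 in KO spans 6.45 to 16.3 CPM.

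All 10 genes of 60S assembly were fitted above 0 in KO under TMM scaling, with a median of 0.32, and 0 passed the test. Rrp1, the lowest of them at 0.01, was at -0.022 with RLE factors. Nop16 was at 6.23, 8.86 and 9.13 CPM in the WT libraries, at 9.997, 10.9 and 9.08 CPM in the Het libraries and at 11.2, 10.3, 9.91 and 10.9 CPM in the KO libraries. Nop16, a factor of the early large subunit particle, was separate between WT and KO, with WT-2404 the lowest of all mice. Its difference on the log2 scale was 0.40 (SE 0.19, adjusted p by edgeR = 0.218), and the exact permutation test over mice gave a two-sided p of 0.0286. Rrs1 measured 5.91, 4.70 and 10.4 CPM in the WT mice, 7.45, 8.48 and 9.20 CPM in the Het mice and 7.73, 9.48, 9.68 and 11.2 CPM in the KO mice. Rrs1, which brings the small 5S RNA into the large subunit, was low in WT-2404 and WT-1860 but near the top in WT-2067, and the groups overlapped. The log2 fold change came to 0.45 (SE 0.26, adjusted p by edgeR = 0.3), it was 0.24 without WT-1860, and it was 0.84 (adjusted p = 0.0377 by edgeR) without WT-2067; over all alternatives its adjusted p ran from 0.0377 to 0.964.

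Wdr12, which forms a complex with Pes1 and Bop1, and Mrto4, which holds the place of a stalk protein, were separate from WT in Het and overlapped it in KO. For Wdr12, the WT mice had 4.89, 3.88 and 3.74 CPM, the Het mice 5.44, 6.43 and 4.91 CPM and the KO mice 6.61, 3.82, 5.30 and 5.96 CPM. KO-2070 was inside the WT range and the other KO libraries were above it. Wdr12 had 0.38 (SE 0.24, adjusted p by edgeR = 0.341) in KO and 0.41 (SE 0.26, adjusted p by edgeR = 0.36) in Het. Mrto4 was at 6.30, 5.96 and 6.002 CPM in the WT libraries, at 8.86, 6.61 and 7.67 CPM in the Het libraries and at 6.24, 10.1, 7.28 and 7.57 CPM in the KO libraries. For Mrto4 the WT libraries had an SD of 0.184 CPM, and KO-2079 alone of the other groups fell inside their range. Its log2 fold change was fitted at 0.35 (SE 0.21, adjusted p by edgeR = 0.32) in KO and 0.34 (SE 0.22, adjusted p by edgeR = 0.385) in Het, and the KO value was 0.21 without KO-2070. The other 6 genes were Pes1, Bop1, the RNA methyltransferase Nop2, Nip7, Ebna1bp2 and Rrp1. They were fitted between 0.01 and 0.39 in KO, with overlapping ranges in each.

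Scaled by exon length, the members covered a wide span of levels. Npm1 stood highest, at 42.3 CPM per kilobase as the mean over 10 libraries, followed by Nop10 at 14.6, Ncl at 14.1, Nhp2 at 11.7 and Rrp1 at 9.68. The lowest were Rrp12 at 0.893, Polr1a at 0.877 and Wdr12 at 0.426. Exon length here is the union of annotated exons, which puts a gene with rare long isoforms too low. Exons of 15 members overlap an exon of a gene on the opposite strand, and 7 members hold annotated snoRNA genes, so some of their reads may belong to another gene. Pdcd2 and Tsr1 (Srr, 32.3% of exon length) had the largest such overlaps.

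The members were not high in the same way in all KO mice. KO-2126 had the highest value of all 10 mice for 25 of 39 members, where 17.3% of all tested genes were highest there, and it was among the 3 lowest mice for 0 members. WT-2404 was the lowest for 10 members and WT-1860 for 9, where 24.5% and 9.06% of all genes were lowest. The count for WT-2404 is thus near the share of all genes. The mean log2 CPM over the members, less each gene's own mean, was 0.38 in KO-2126 and between -0.06 and 0.11 in the other KO mice, against -0.20 to -0.07 in WT and -0.11 to 0.14 in Het. Without KO-2126 the median log2 fold change in KO against WT was 0.16 with 31 of 39 members above 0, and without WT-2404 it was 0.23 with 35 above 0. Pdcd2 changed little, at 1.07 without KO-2126 and 0.96 without WT-2404. Pdcd2l was at 0.65 and 0.70, Polr1b at 0.52 and 0.65, and Gnl3 at 0.26 in both cases. Dkc1 was at 0.20 without KO-2126 and 0.22 without WT-1860, and Nop16 at 0.23 without WT-2404.

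**Figure D3:**
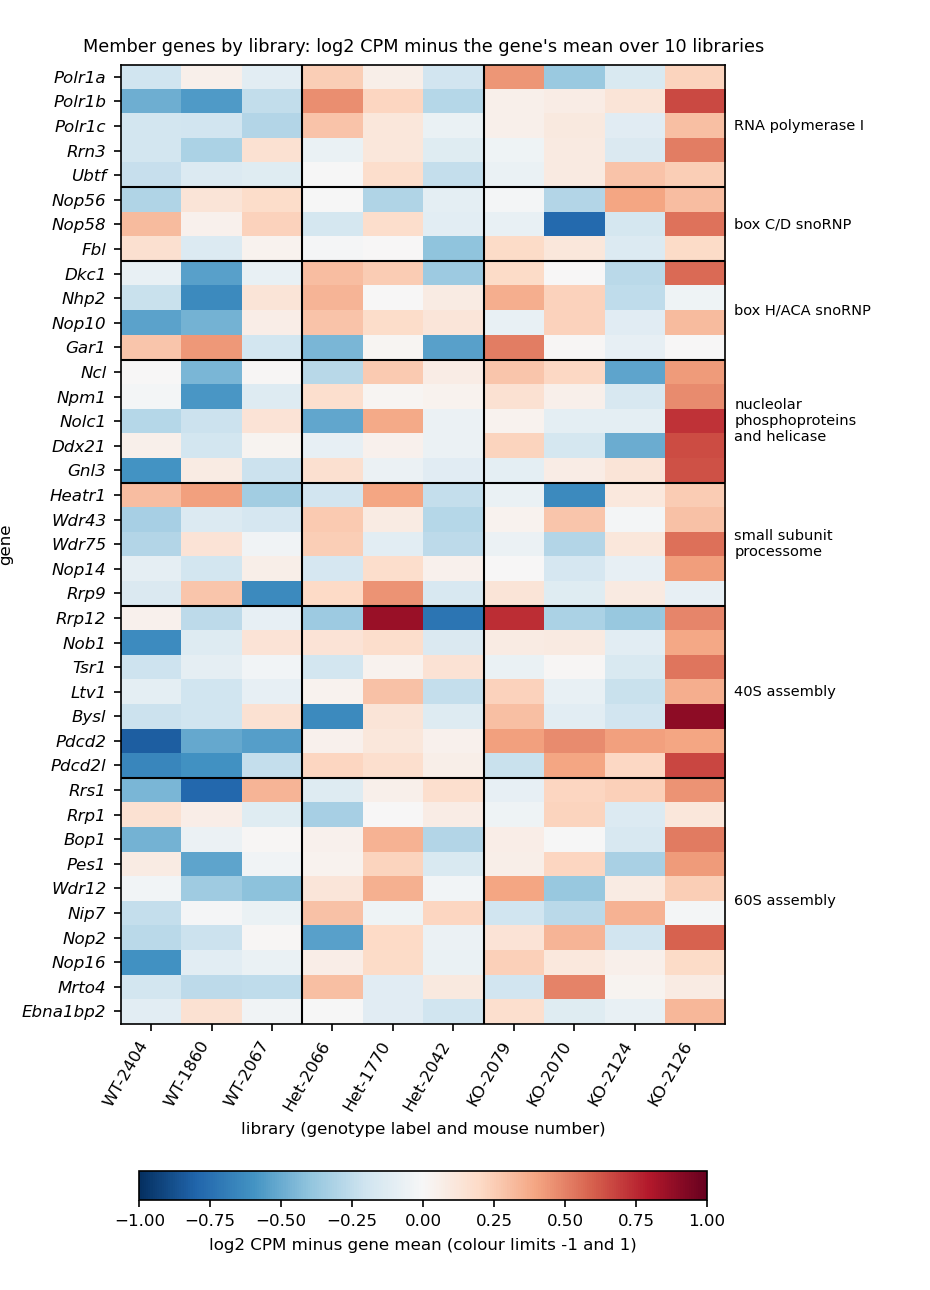
Each member (rows, grouped by role) in each library (columns) as log2 CPM minus the gene's mean over 10 libraries, coloured from -1 (blue) to 1 (red). The KO-2126 column is the highest for 25 of 39 genes, where 17.3% of all tested genes were highest. The WT-2404 and WT-1860 columns are the lowest for 10 and 9 genes, where 24.5% and 9.06% of all tested genes were lowest. For WT-2404 the count is near the share of all genes.

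Between KO and Het, Pdcd2 stood apart only by its ranges and did not pass the test. In KO against Het, 31 of 39 members were fitted above 0 (51.4% of all genes), with a median of 0.10 beside 0.01 over all genes. edgeR and DESeq2 each called 0 members (0% of all genes by edgeR), 0 members had an unadjusted p under 0.05, and ranges were separate for 1 member, Pdcd2 (1.3% of all genes with KO higher, 1.16% with KO lower). The median was -0.02 without KO-2126. With Het and KO as 1 group against WT, 32 of 39 members were fitted above 0 (51.2% of all genes), with a median of 0.22, and 3 had separate ranges with WT lower, Pdcd2, Pdcd2l and Polr1c (3.99% of all genes), and 0 with WT higher (5.84%). edgeR called 0 members (0%), with 4 higher at an unadjusted p under 0.05 (11.7%), and DESeq2 called 2, Pdcd2 and Pdcd2l (12.8%). The smallest adjusted p by edgeR was 0.0597, for Pdcd2, with a log2 fold change of 0.88 (SE 0.16). Its exact permutation p over the mice was 0.00833 (two-sided), the smallest that 3 against 7 allow.

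The rest of the pathway was taken from a wider list of 127 other ribosome biogenesis genes, all of them tested. In KO against WT 90 of 127 were fitted above 0, with a median of 0.20, and edgeR called 0; at an unadjusted p under 0.05, 16 were higher and 1 was lower (9.6% and 13.9% of all genes), and DESeq2 called 3, Rcl1, Imp3 and Rsl1d1 (7.37% of all genes). In Het against WT 85 were above 0, with a median of 0.16 and 0 called, 14 higher and 2 lower at an unadjusted p under 0.05 (8.26% and 11.6% of all genes), and 2 called by DESeq2 (2.92%). Rcl1 measured 3.71, 4.43 and 5.70 CPM in the WT mice, 11.6, 9.88 and 6.63 CPM in the Het mice and 10.8, 9.09, 7.28 and 8.99 CPM in the KO mice. Rcl1, a protein of the small subunit processome, was higher in every Het and KO mouse than in every WT mouse, with a KO against WT log2 fold change of 0.98 (SE 0.25, adjusted p by edgeR = 0.116). Imp3, a U3 snoRNP protein, had 0.88 (SE 0.24, adjusted p by edgeR = 0.116), and Rsl1d1, a large subunit factor, had 0.59 (SE 0.17, adjusted p by edgeR = 0.116). For Rsl1d1, the WT mice had 16.8, 13.7 and 16.8 CPM, the Het mice 29.6, 23.3 and 21.4 CPM and the KO mice 23.9, 23.7, 23.1 and 24.1 CPM. The KO values of Rsl1d1 lay all above WT and close together, with a coefficient of variation of 1.79%. Rsl1d1 had 180 to 1004 counts per library, and counting error alone gives a wider spread than this. In the wider list, 20 of 127 genes had separate KO and WT ranges with KO higher and 3 with KO lower (6.74% and 9.17% of all genes). At the other end, Exosc8, a subunit of the RNA exosome, had -1.005 (SE 0.40, adjusted p by edgeR = 0.163), Nol10 had -0.53 (SE 0.30) and Ruvbl2 had -0.33 (SE 0.20), or -0.22 without WT-1860.

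Myc, which activates transcription of this pathway, was in the wider list. Myc was at 12.3, 20.4 and 23.1 CPM in the WT libraries, at 36.6, 25.4 and 24.1 CPM in the Het libraries and at 28.6, 24.1, 33.9 and 60.3 CPM in the KO libraries. The Het and KO values were all above the WT values, by a small step from 23.1 CPM in WT-2067 to 24.1 CPM. Of all tested genes, 3.99% had such ranges with WT lower, and 9 of the 127 genes of the wider list did. KO-2126, the mouse with the highest member levels, had by far the highest Myc. The next highest Myc values were in Het-2066 and KO-2124, where the centred mean of the members was 0.003 and -0.055. In Het-1770 that mean was 0.14, with Myc at 25.4 CPM. Whether Myc and the members are linked was not tested. For Myc, the difference from WT on the log2 scale was 0.99 (SE 0.33, adjusted p by edgeR = 0.128) in KO and 0.64 without KO-2126.

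Scaling mattered for the level of all genes and less for the members relative to them. Under TMM, RLE factors and TMM without the enzyme genes, the KO against WT median of the members was 0.30, 0.27 and 0.29. With the total outside the enzyme genes as the library size it was 0.06, with 22 of 39 members above 0, where the median of all genes was -0.20. With the plain library size it was -0.95, with 0 of 39 above 0, where that of all genes was -1.17. The direction of the members' median against 0 turned in KO with the library size alone. Relative to the median of all genes, the members were higher by 0.27, 0.27, 0.26, 0.26 and 0.22 under the 5 scalings, with 35, 35, 35, 35 and 33 of 39 members above that median. In Het against WT the members' median was 0.18, 0.15, 0.19, -0.15 and -1.20 and their excess over all genes 0.17, 0.17, 0.17, 0.17 and 0.15. As a share of gene counts the members took 0.226% (Wilson 95% interval 0.223% to 0.228%) in WT-2404 and 0.0459% (0.0447% to 0.0472%) in KO-2070, the extremes, and 0.210% to 0.270% of the counts outside the enzyme genes.

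**Figure D4:**
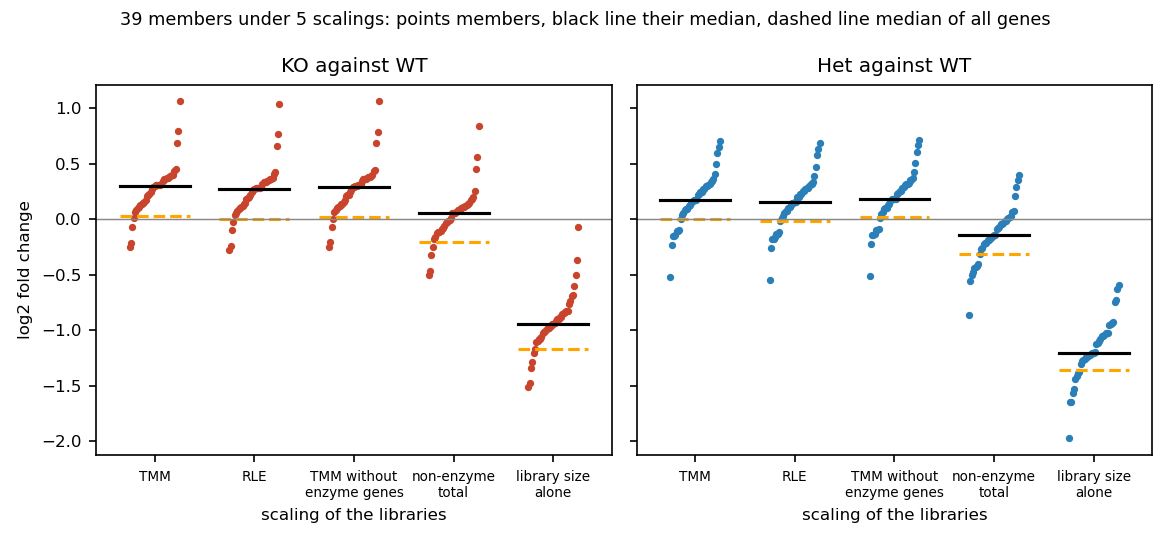
Log2 fold changes of the 39 members (points) under 5 scalings of the libraries, for KO against WT (left) and Het against WT (right); the black line is their median and the dashed line the median of all tested genes. The black line lies above the dashed line in each case, by 0.22 to 0.27 in KO against WT, and both fall below 0 when the library size alone is used. In Het against WT both lie below 0 with the total outside the enzyme genes too, at -0.15 and -0.31.

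Marker lists of acinar and other cells had fitted values mostly on 1 side of 0 in KO against WT. Acinar identity genes (Ptf1a, Rbpjl, Bhlha15, Nr5a2, Gata4, Cpa1) were fitted higher in KO than in WT in 6 of 6 cases, with a median of 0.70, and digestive enzyme genes in 30 of 31, with a median of 1.16. Proliferation genes were lower in 9 of 9 (median -1.59), myeloid genes in 6 of 6 (-1.54) and fibroblast genes in 6 of 7 (-1.70). Ductal genes were lower in 6 of 8 (-1.58) and lymphoid genes in 7 of 7 (-1.09), while islet genes were higher in 6 of 7 (0.81), endothelial genes in 4 of 4 (0.38) and adipocyte genes in 4 of 4 (0.60). By edgeR, 0 genes of these lists passed the test. Summed over the list, proliferation genes were at 49.6 to 156 CPM in WT, 32.6 to 34.8 in Het and 23.3 to 71.4 in KO, and Aurkb, Bub1 and Ccnb1 had 0 counts in KO-2070. Myeloid genes were at 298 to 1089 CPM in WT, 161 to 233 in Het and 90.2 to 333 in KO, and fibroblast genes at 1220 to 4324, 494 to 954 and 437 to 1097. No defining marker of the myeloid and fibroblast lists was at 0 in any library. Lymphoid genes were low throughout, at 12.8 to 28.9 CPM in WT, 5.79 to 6.52 in Het and 2.12 to 17.7 in KO, and Cd3g, Cd8a and Ms4a1 had 0 counts in KO-2126 and Cd3g in KO-2070. In WT-2404 the acinar identity genes lay 2.71 below their mean on the log2 scale, and the members 0.20 below theirs. With the enzyme share of each library as a covariate, the members' KO against WT median was 0.17 with 35 of 39 above 0. The median of all genes in that fit is not given here, so these values show no excess over all genes. The part of the other lists in the member values was not tested. In a bulk piece, fewer cells of a type and less RNA per cell cannot be told apart.

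**Figure D5:**
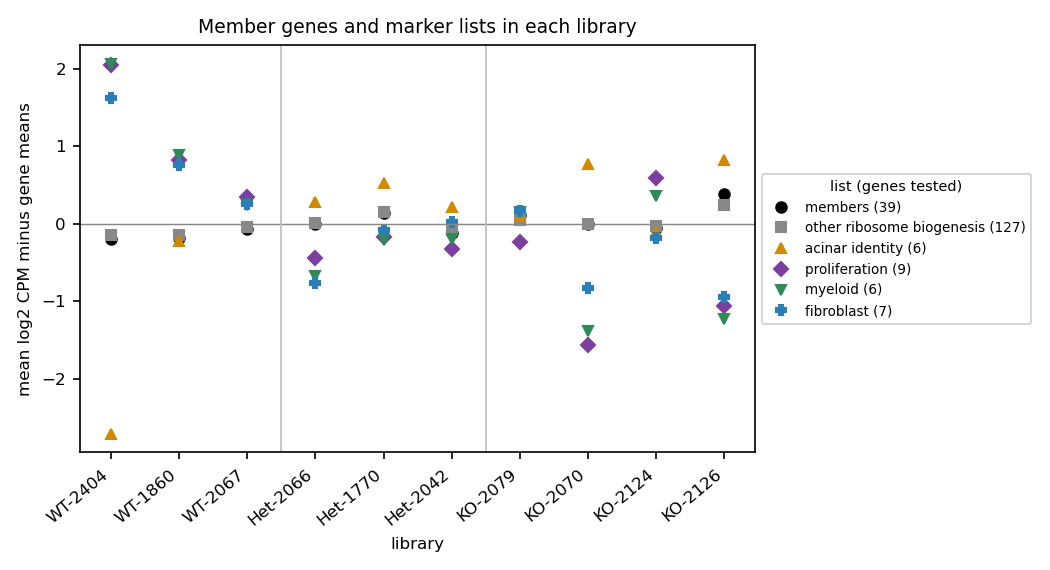
Mean log2 CPM, less each gene's mean, of the members, the 127 other ribosome biogenesis genes and 4 marker lists in each library. The members and the wider list stay between -0.20 and 0.38 in all 10 libraries, while the marker lists reach -2.71 for acinar identity genes in WT-2404.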

How the data were processed

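RNA was measured in pieces of pancreas tail from 10 mice. Per the labels' protocols, frozen tissue was pulverised and RNA isolated with a column kit. The table deposited by the authors holds raw counts per gene, as integers whose totals vary between libraries. The submitters' processing notes name DRAGEN, STAR, Cufflinks and mm10; their roles, versions, the annotation and the use of strand are not given in the sources used here. 1 element of the genotype that all groups share is not reported here. A label counts 4 WT mice, of which 1 was not analysed here. The labels give no batch, litter or date. P-values set a difference between groups against the spread between these mice.

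All 10 columns were matched by genotype and mouse number. The 2 rows that name no gene were left out; reads outside genes made 2.59% to 8.71% and ambiguous reads 0.101% to 0.584% of a library. Libraries of 1 group differed by more than sampling noise (chi-square per degree of freedom 26.5 to 988), so each counted as 1 replicate. Genes passing edgeR's filterByExpr (minimum count 10) were tested in 1 fit over all libraries with TMM factors and the robust quasi-likelihood test (edgeR 4.0.16, R 4.3.3), two-sided, with Benjamini-Hochberg adjustment over 13688 genes and a threshold of 0.05. Scripts were tested on simulated data. Alternatives were DESeq2 1.42.0, other scalings and filters, a covariate, only the groups compared, and each mouse left out. Standard errors (SE) were derived from edgeR's test, as the absolute log2 fold change divided by the square root of the F statistic. Wilson intervals cover counting error only.

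The members and lists were chosen with earlier results of these data known, so no p is given for a list. Values in every mouse are given for the 2 members of each role with the smallest p in KO against WT, for members with separate ranges, and for the 3 fitted below 0. Other pathway genes named are the 3 in each direction with the smallest p, and Myc. Gene positions are from GENCODE M21 (GRCm38), promoters from RefSeq (GRCm38.p6).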

Additional observations from a re-analysis of the deposited data

Results flagged for a closer look

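In 3 of the 39 members 1 KO library lay apart from the other 3 by a gap that took up most of the range of the KO group, where chance gives about 1.95 of 39. Polr1b was at 13.1 CPM in KO-2126 and at 8.53 to 9.03 CPM in the others. Nolc1 was at 27.2 CPM in KO-2126 and at 15.3 to 16.8 CPM in the others. Gar1 stood out in KO-2079 with 7.48 CPM, where the others had 4.93 to 5.27 CPM. Groups of 3 mice were not examined in this way.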

How the results depend on the processing

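With DESeq2 the members called were 1 in KO against WT, 1 in Het against WT and 2 in Het and KO together against WT, and the other pathway genes called were 3, 2 and 6. With library size alone, the members' median log2 fold change was -0.95 in KO, -1.20 in Het and -1.06 in both together. There edgeR called 0 members in KO, 3 in Het and 14 in both together, all lower, and 6, 9 and 56 other pathway genes, where it called 20.7%, 22.8% and 51.9% of all genes. With the total outside the enzyme genes as library size, an alternative chosen after seeing the data, the medians were 0.058, -0.15 and -0.067, and 1 member and 1 other pathway gene were called in both together against WT, with 9.07% of all genes.

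Leaving out 1 mouse at a time moved the members' median from 0.16 (without KO-2126) to 0.36 in KO against WT, from 0.08 (without Het-1770) to 0.26 in Het against WT, from -0.024 (without KO-2126) to 0.16 in KO against Het and from 0.16 to 0.30 in both together against WT. Members called ranged from 0 to 3 in KO, 0 to 0 in Het and 0 to 4 in both together. Other pathway genes called ranged from 0 to 8, from 0 to 6 and from 0 to 11. The highest counts came without WT-2067, where 13.6%, 8.17% and 20% of all genes were called. Without KO-2124, 1 member and 2 other pathway genes were called in both together, with 3.65% of all genes.

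With library size alone the sign against 0 turned for single members in KO against WT, to -0.51 for Polr1b, -0.95 for Polr1c, -0.84 for Ubtf, -0.92 for Nop56, -0.73 for Nop10, -0.94 for Dkc1, -0.69 for Gnl3, -0.95 for Npm1, -0.83 for Wdr43, -0.066 for Pdcd2, -0.36 for Pdcd2l, -0.68 for Nop16, -0.61 for Rrs1, -0.90 for Wdr12 and -0.90 for Mrto4, and for other pathway genes to -0.12 for Rcl1, -0.21 for Imp3, -0.63 for Rsl1d1 and -0.057 for Myc. In Het it turned to -0.59 for Pdcd2, -0.63 for Pdcd2l, -0.73 for Polr1b, -0.74 for Nop10, -1.04 for Polr1c, -1.06 for Wdr12, -1.02 for Mrto4 and -1.12 for Npm1. In both together it turned to -0.33 for Pdcd2, -0.50 for Pdcd2l, -0.62 for Polr1b and -0.74 for Nop10. The construction of this scaling sets the shift, since the median of all genes was -1.17 in KO and -1.36 in Het. Members close to 0 turned elsewhere. Nop56 in KO was -0.0060 with the enzyme share as a covariate, -0.092 with the total outside the enzyme genes, -0.029 without WT-2404 and -0.011 without KO-2124, and ranged from -0.029 to 0.22 over the mice left out. Gar1 in KO was 0.012 with the covariate and 0.058 without WT-1860, ranging from -0.23 to 0.058 over the mice left out, and Npm1 in Het was -0.014 with the total outside the enzyme genes. The cause was not tested for these.

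RLE factors, TMM without the enzyme genes, a filter of at least 1 count and a fit to only the groups compared changed no call of a member. Some members near 0 turned, such as Rrp1 in KO (-0.022) and Ddx21 in Het (-0.020) with RLE factors. Members above 0 were 35 in KO and 30 in Het with RLE factors and with the filter of at least 1 count, 30 in Het with only the groups compared, and 30 in KO against Het with RLE factors and with TMM without the enzyme genes. No paired analysis was possible because the groups share no mouse numbers. With 3 or 4 mice a group, whether a member differs by less than its spread between mice could not be shown.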
